A study of Homo sapiens with 12 samples.

Results

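HEK293 is a human cell line made from the kidney of an embryo, and the transcriptome described here is that of its control cells: the 3 libraries, of 12 in the RNA-seq experiment, in which wild-type (WT) HEK293 cells were transfected with LifeAct-Dendra2. The members were taken by the treatment label of the libraries, and all 26485 genes of the count table were examined in them. LifeAct is a short yeast peptide that binds actin filaments, and Dendra2 is a fluorescent protein. Cells received 1 μg of plasmid and were harvested 48 hr later. The libraries came from 3 separate passages, so the spread between them is that between passages of 1 cell line. The measurement has limits as a picture of resting HEK293 cells: every library came from transiently transfected cells, no untransfected cells were sequenced among these samples, and the plasmid's own transcript is not a row of the count table, so its level was not measured. All 3 libraries belong to 1 group, no construct was compared with another, and no test was made.

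HEK293 cells carry a fragment of adenovirus DNA and grow as an adherent sheet. Although the line was made from fetal kidney, it is known for transcripts usually found in neurons, and cells of the adrenal gland, which lies beside the kidney in the embryo, have been discussed as a possible origin. The kidney, neuronal and adrenal genes are therefore described in turn, after the genes that take the most reads and before those that take none. In bulk RNA, a low level in every cell and a high level in a few cells cannot be told apart.

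The control libraries held 34137767, 41708839 and 33996811 counts for replicates 1, 2 and 3, or 109843417 in all. Levels are given as CPM, the count of a gene per 1000000 counts of its library. A gene counted as expressed at a mean of 1 CPM or more and as silent when it had 0 counts in all 3 libraries. A limit of 3 counts corresponded to between 0.0719 and 0.0882 CPM in single libraries and to 0.0273 CPM over the pooled libraries, so silence means a level under that limit rather than none, and the limit covers counting error only. Between 19418 and 19987 genes had at least 1 count in a library.

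Expression was broad and spread over many genes. Of 26485 genes, 14608 (55.2%) reached 1 CPM and held 99.85% of the counts. A further 6705 genes had some counts but stayed under 1 CPM, and 5172 (19.5%) had none. Most expressed genes sat at a moderate level: 8309 genes lay between 10 and 100 CPM and took 33.99% of the counts, whereas 2378 genes between 100 and 1000 CPM took 52.2%. Only 70 genes reached 1000 CPM, and they took 12.05%. No gene dominated the libraries, since the most abundant gene took 0.850% ± 0.0438 of the counts (SD, n = 3), the 10 most abundant 3.76% ± 0.173 and the 100 most abundant 14.8% ± 0.549. The first 50% of the counts came from 1342, 1269 and 1290 genes in replicates 1, 2 and 3, and the first 90% from 6757 ± 85.6 genes (SD, n = 3).

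**Figure D1:**
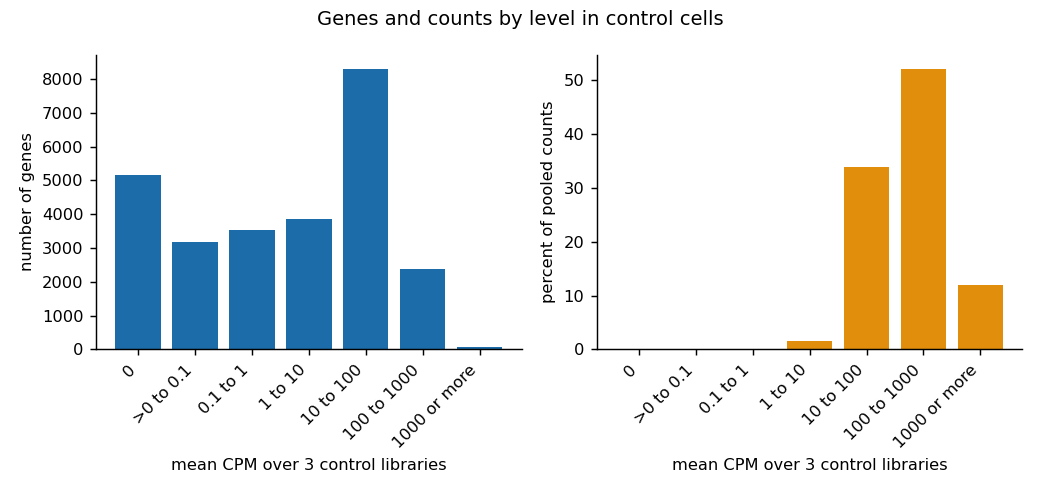
Number of genes (left) and percent of the pooled counts (right) in classes of mean CPM over the 3 control libraries, with bars starting at 0. The class from 10 to 100 CPM holds the most genes (8309), whereas the class from 100 to 1000 CPM holds the most counts (52.2%).

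The genes with the most counts encode the machinery that makes proteins. *EEF2*, the elongation factor that moves the ribosome along the messenger RNA, had 275704, 353630 and 304311 counts in replicates 1, 2 and 3, which is 8076, 8479 and 8951 CPM (mean 8502 ± 438, SD, n = 3). *EEF1A1*, which delivers charged transfer RNAs to the ribosome, followed at 5722, 6522 and 5145 CPM. By counts, the lowest library for *EEF2* lay above the highest for *EEF1A1*. *RPS2*, a protein of the small ribosomal subunit, had 4348 ± 166 CPM. *CKB*, the brain type of creatine kinase, which passes phosphate between creatine and ATP, had 3303, 3178 and 3342 CPM and thus varied little between libraries. Among the 30 genes named for the most counts were 11 cytosolic ribosomal proteins, 3 elongation factors (*EEF2*, *EEF1A1* and *EEF1G*) and *GNB2L1*, now named *RACK1*, a scaffold bound to the small subunit, at 2634 ± 98.0 CPM.

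The other genes in that group covered energy metabolism, the cytoskeleton, chaperones and the nucleus. The glycolytic enzymes *ENO1*, *GAPDH* and *PKM* had 2564 ± 429, 2129 ± 319 and 1764 ± 199 CPM (SD, n = 3). *ENO1* ranged from 2121 CPM in replicate 3 to 2976 CPM in replicate 1. Fatty acid synthase, *FASN*, had 2067 ± 188 CPM. The cytoplasmic actins *ACTG1* and *ACTB* had 2561 ± 370 and 1565 ± 295 CPM, and *FLNA*, which crosslinks actin filaments, had 2063 ± 147 CPM. *HSP90AA1*, an abundant cytosolic chaperone, had 1800 ± 198 CPM. Nuclear proteins were represented by *SRRM2*, a component of splicing speckles, which was at 1764 CPM in replicate 1 and at 2505 and 2630 CPM in the others, and by *BRD2*, a reader of acetylated histones, at 1904 ± 300 CPM. *GNAS*, the stimulatory G protein alpha subunit, closed the group at 1469 ± 74.3 CPM. Actins, ribosomal proteins and *EEF1A1* have near-identical relatives or processed copies elsewhere in the genome, and it is not given in the sources used here how reads with several matches were counted, so their levels are less certain than those of *EEF2* or *CKB*.

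**Figure D2:**
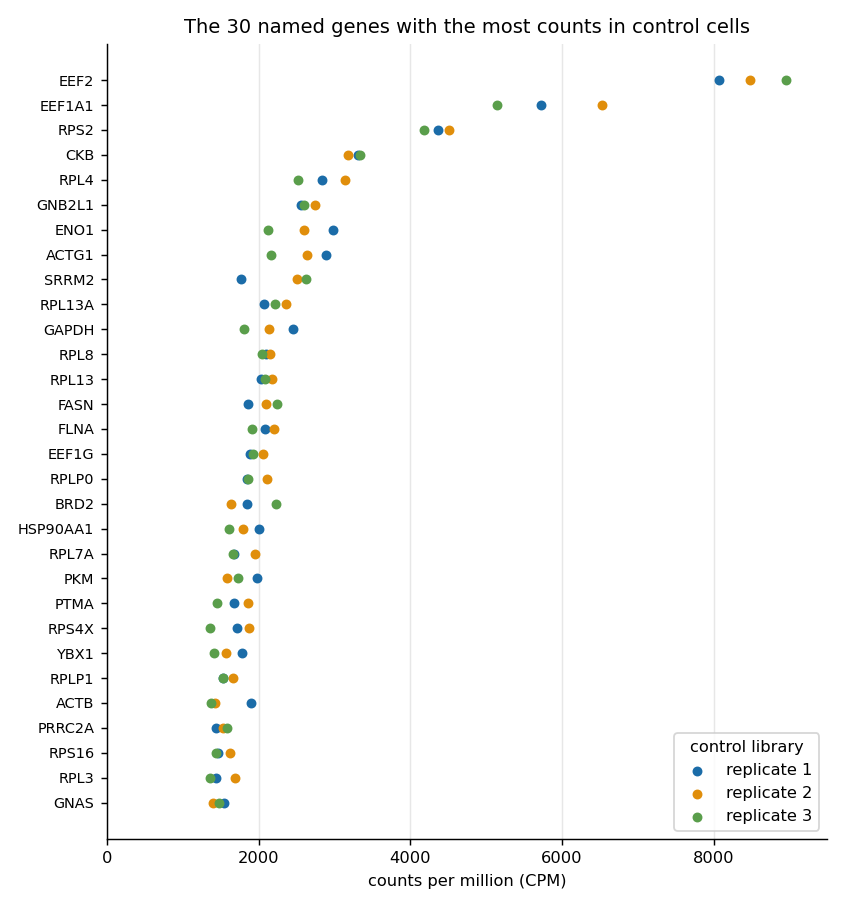
CPM in each control library for the 30 named genes with the most counts, ordered by their mean, with 1 point for each replicate. *EEF2* stands apart at 8076 to 8951 CPM, and from *RPL4* downward the points of neighboring genes overlap.

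Counts favor long transcripts, so levels of the most abundant genes were also compared as TPM, a level per transcript length. TPM is the count divided by the length of the gene's merged exons and scaled to the same sum in each library. Members of lists and families are ordered by CPM unless TPM is given. *EEF2* had 9100, 9785 and 10360 TPM (mean 9749 ± 631, SD, n = 3), *RPS2* 8391 ± 326 TPM and *CKB* 6333 ± 175 TPM. The libraries of these 3 genes did not overlap with each other, and those of *CKB* lay above every gene that followed. Of the 19 pairs of neighbors among the first 20 protein-coding genes, 16 had overlapping ranges. Of these 20 genes, 13 were ribosomal proteins, and the others were *EEF2*, *EEF1G*, *EEF1A1*, *CKB*, *GAPDH*, *ACTG1* and *HMGA1*, a small chromatin protein that bends DNA, at 2816 ± 258 TPM. *EEF1A1*, next to *EEF2* by counts, had 2655 ± 321 TPM over an exon length of 10063 bases. The choice of length decided the order at the top: with the length of the canonical transcript in place of all exons, *RPS2* came first at 11310 ± 375 TPM, *RPS15* next at 7000 ± 569 TPM and *EEF2* after them at 6622 ± 459 TPM.

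The promoters of *EEF2* and *CKB* are shown because these genes were 2 of the 3 with the highest TPM; for *RPS2* no sequence is shown. Each sequence covers 250 bases before to 50 bases after the transcript start in RefSeq on GRCh38.p14, on the gene's own strand, with CG pairs in capitals. *EEF2* is on the reverse strand at chr19:3985414-3985713, and *CKB* on the reverse strand at chr14:103522781-103523080. The *EEF2* window held 41 CG pairs, and that of *CKB* held 36.
EEF2: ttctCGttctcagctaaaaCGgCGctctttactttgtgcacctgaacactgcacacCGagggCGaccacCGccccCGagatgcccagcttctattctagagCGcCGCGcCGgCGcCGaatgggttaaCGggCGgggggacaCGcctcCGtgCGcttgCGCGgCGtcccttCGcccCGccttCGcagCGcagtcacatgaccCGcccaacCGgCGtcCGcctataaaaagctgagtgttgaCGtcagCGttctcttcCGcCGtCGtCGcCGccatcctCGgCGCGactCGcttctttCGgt
CKB: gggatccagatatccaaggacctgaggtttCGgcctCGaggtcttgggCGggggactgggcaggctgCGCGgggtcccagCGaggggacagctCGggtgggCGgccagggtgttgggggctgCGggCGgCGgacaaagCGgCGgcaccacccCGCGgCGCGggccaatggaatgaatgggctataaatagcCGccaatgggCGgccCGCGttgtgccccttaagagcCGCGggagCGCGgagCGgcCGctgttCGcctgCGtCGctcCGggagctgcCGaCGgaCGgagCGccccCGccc

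By gene class, protein-coding genes took nearly all counts. The 19072 protein-coding genes held 98.3% ± 0.101 of the counts (SD, n = 3), and 13365 of them (70.1%) were expressed, with a median of 15.0 CPM. Long noncoding RNAs were less often expressed: 698 of 3086 (22.6%) reached 1 CPM, and together they held 1.01% ± 0.104 of the counts. Pseudogenes held 0.377% ± 0.0112, with 265 of 753 expressed. Small RNA genes were seldom expressed: 20 of 1854 miRNA genes and 54 of 550 snoRNA, snRNA and related genes reached 1 CPM. The libraries were made from poly(A) RNA, in which mature small RNAs are not retained, so these values are no measure of miRNA or snoRNA abundance. No gene of the mitochondrial genome was in the table.

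Of the 10 long noncoding RNAs named for the most counts, 7 were hosts of small nucleolar RNAs, which are cut from introns of such transcripts and guide the modification of ribosomal RNA. *LRRC75A-AS1*, also named *SNHG29*, had 327 ± 14.8 CPM (SD, n = 3). *C6orf48* (*SNHG32*), *SNHG16*, *ZFAS1*, *GAS5*, *SNHG7* and *SNHG17* ranged from 131 to 187 CPM, and 18 of 21 *SNHG*-named genes were expressed. *LINC00657*, now *NORAD*, a cytoplasmic RNA that binds Pumilio proteins, had 267.3 ± 31.02 CPM, and *LINC01000* had 183 ± 42.2 CPM. *NEAT1*, the scaffold of nuclear paraspeckles, had 164.6, 87.78 and 229.7 CPM in replicates 1, 2 and 3, the widest range among these 10 genes. *LRRC75A-AS1* is annotated antisense to a coding gene, and whether reads were counted by strand is not given in the sources used here, so reads of such pairs cannot be told apart.

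Ribosomal protein families were expressed almost completely, and proteasome subunits at 89.7%, compared with 70.1% of protein-coding genes. Of 85 cytosolic ribosomal protein genes, 83 were expressed, and they held 6.79% ± 0.377 of the counts and 10.9% ± 0.619 of the TPM (SD, n = 3). Of mitochondrial ribosomal protein genes 75 of 76 were expressed, and of proteasome subunits 35 of 39. The zinc finger genes named *ZNF*, a large family of DNA-binding repressors and activators, had 453 of 529 members (85.6%) expressed and held 1.69% ± 0.0860 of the counts. *ZNF711* was the highest among them and varied widely, at 1064, 1293 and 546.6 CPM in replicates 1, 2 and 3. Solute carriers, which move nutrients and ions across membranes, had 255 of 371 members (68.7%) expressed, near the share of protein-coding genes. They held 1.23% ± 0.0130 of the counts, led by the glutamine transporter *SLC1A5* at 587 ± 76.0 CPM. Shares below that of protein-coding genes were seen for potassium channels (48 of 95 expressed), cytochromes P450 (25 of 56) and histones (32 of 80), most of whose messengers lack a poly(A) tail.

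The summed CPM of the housekeeping lists differed between libraries. Glycolytic enzymes summed to 13720, 12070 and 9871 CPM in replicates 1, 2 and 3. Actins and tubulins summed to 9939, 9086 and 7836 CPM, chaperones to 15050, 14060 and 12700 CPM, and nuclear RNA-binding proteins to 19030, 16690 and 16120 CPM. In all 4 lists replicate 1 was highest and replicate 3 lowest. Translation factors did not follow, with 28040, 29070 and 27490 CPM. What these sums move with was not tested.

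Kidney genes of the early embryo (73.9% expressed) were near the share of all protein-coding genes, and those of the filtering cells above it (80.0%). Genes of the finished tubule were below it in every list. Of 93 kidney genes in 5 lists, 52 (55.9%) were expressed and 9 had no count, beside 55.2% expressed among all genes and 70.1% among protein-coding genes. The median of the kidney genes was 1.31 CPM, compared with 15.0 CPM for protein-coding genes and 2.46 CPM for all genes. Together they held 0.167% ± 0.0169 of the counts (SD, n = 3).

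Nephron progenitors are the embryonic cells from which kidney tubules form. Of the 23 genes listed for them, 17 were expressed and none was without counts. *SALL1*, a zinc finger factor needed for kidney outgrowth, had 74.87, 97.29 and 142.3 CPM in replicates 1, 2 and 3. The homeobox factor *HOXD11* had 46.2 ± 2.46 CPM (SD, n = 3). *SIX2*, which keeps progenitors from differentiating, had 17.08, 16.40 and 15.47 CPM, and *PAX2*, a paired-box factor of the early kidney, 16.40, 17.29 and 15.56 CPM. Both were therefore present at steady levels in every library. *GATA3*, which the chromaffin list also holds, had 45.6 ± 5.73 CPM, *WNT11* 23.2 ± 6.44 CPM, *GDNF*, the signal that draws out the ureteric bud, 16.6 ± 3.48 CPM, and *WT1* 7.26 CPM. *PAX8*, the partner of *PAX2* that stays on in adult kidney epithelium, had 7, 2 and 2 counts. *CDH6*, a cadherin of early tubules, had 2, 0 and 2 counts. Signals and factors of the early kidney were also among the 6 genes under 1 CPM, as *FGF8* had 26, 27 and 41 counts, *MEOX1* 19, 42 and 31 and *WNT9B* 2, 14 and 6.

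Podocytes are the filtering cells of the glomerulus, and 12 of their 15 listed genes were expressed. The highest members are used by many cell types: *ACTN4*, an actin crosslinker, had 744 ± 123 CPM (SD, n = 3) and *CD2AP*, an adaptor protein, 97.2 ± 9.07 CPM. *PODXL*, the sialomucin of the podocyte surface, had 91.1 ± 17.4 CPM and the basement membrane collagen *COL4A4* 30.5 ± 8.96 CPM. The slit diaphragm gene *NPHS1* (nephrin) had 47, 85 and 233 counts, a mean of 3.42 CPM, and was highest in replicate 3.

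The lists of the mature tubule held fewer expressed genes, and the loop and distal tubule list the fewest. In the proximal tubule, which reabsorbs most of the filtrate, 11 of 22 genes were expressed. *LRP2* (megalin), its endocytic receptor, had 26.33, 55.77 and 62.89 CPM, while its partner *CUBN* (cubilin) had a mean of 2.69 CPM. *GGT1* had 18.2 ± 6.13 CPM (SD, n = 3), the water channel *AQP1* 5.14 ± 1.54 CPM and the glucose carrier *SLC5A2* 4.84 ± 1.84 CPM. *SLC22A6* and *SLC22A8*, the organic anion transporters, and *FBP1*, an enzyme of gluconeogenesis, had 0 counts, and *HNF4A*, the master factor of the segment, had 0, 4 and 0 counts. In the loop of Henle and distal tubule, 3 of 18 genes were expressed. *POU3F3*, also a factor of the developing brain, had 41.0 ± 6.89 CPM, whereas the potassium channel *KCNJ1* was near the threshold at 1.22 CPM. The salt transporters *SLC12A1* and *SLC12A3* were under 1 CPM, and *UMOD* (uromodulin) had 0 counts.

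In the collecting duct, where water balance is set, 9 of 15 genes were expressed. *TFCP2L1*, a factor of duct cells, had 35.9 ± 7.82 CPM, *HSD11B2*, which inactivates cortisol, 12.5 ± 3.02 CPM, the proton pump subunit *ATP6V1B1* 7.59 ± 1.61 CPM and the water channel *AQP3* 4.86 ± 0.909 CPM (SD, n = 3). The other expressed genes lay just above the threshold: *SCNN1B* at 1.32 CPM, *SCNN1A* at 1.31, *SLC26A4* at 1.28, *AVPR2* at 1.27 and *SLC4A1* at 1.26. *AVPR2*, with 26, 18 and 89 counts, and *SLC4A1*, with 31, 26 and 76, passed 1 CPM on average only through replicate 3. The vasopressin-regulated water channel *AQP2* had 0, 8 and 10 counts. *ELF5*, *FOXI1*, the factor of intercalated cells, and *FXYD4* had 0 counts in all libraries. Every mature segment thus lacked counts for at least 2 of its listed genes.

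**Figure D3:**
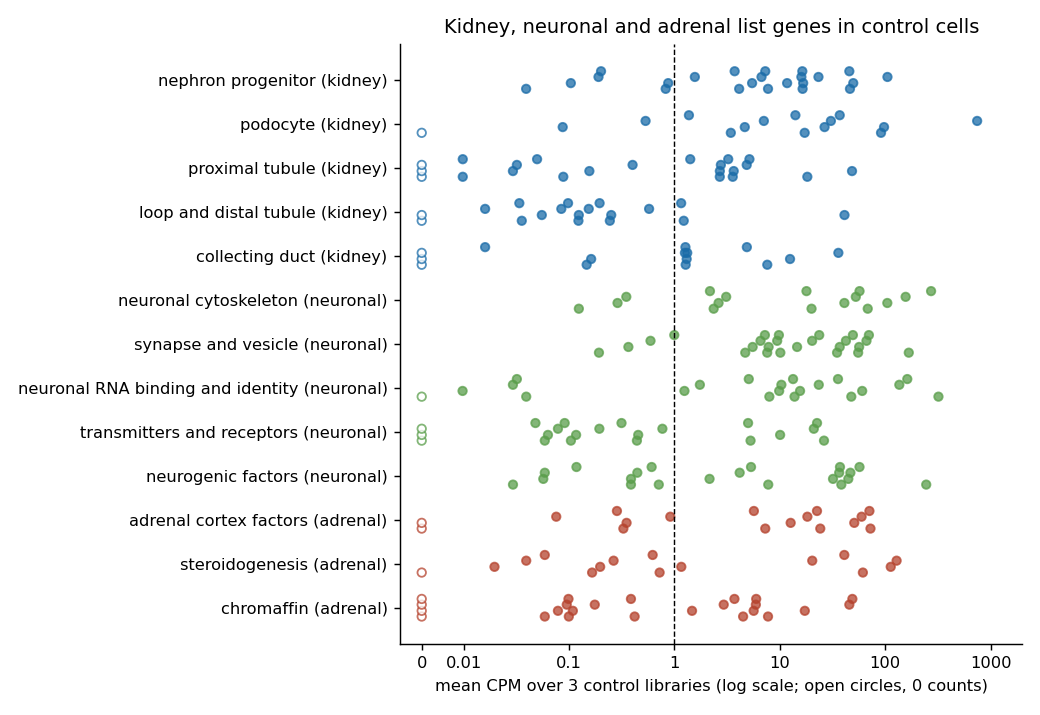
Mean CPM over the 3 control libraries, on a log axis, of each gene in the kidney, neuronal and adrenal lists, with 1 point for each gene, open circles for genes with 0 counts and a dashed line at 1 CPM. Most points of the nephron progenitor, neuronal cytoskeleton and synapse lists lie right of the line, and 15 of 18 of the loop and distal tubule list lie left of it.

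Neuronal genes were expressed more fully than kidney genes by count, with 68 of 104 (65.4%) at 1 CPM or more and a median of 7.39 CPM, and they held 0.302% ± 0.0195 of the counts (SD, n = 3). The share expressed was below that of protein-coding genes as a whole, 70.1%, and the median was below theirs, 15.0 CPM. Of 16 genes of the neuronal cytoskeleton, 13 were expressed. *MAP1B*, a microtubule-binding protein of growing axons, had 160.4, 375.2 and 279.7 CPM in replicates 1, 2 and 3. *NEFL*, the light neurofilament subunit, had 188.9, 193.1 and 85.77 CPM. These genes had different extremes, as *MAP1B* was lowest in replicate 1 and *NEFL* in replicate 3. *DPYSL3*, *STMN3* and *CRMP1*, which regulate microtubules in axons, had 105 ± 22.1, 68.1 ± 21.1 and 57.0 ± 7.36 CPM. *TUBB3*, a tubulin of young neurons, had 520, 694 and 739 counts, or 17.9 CPM. The 3 genes of the list under 1 CPM were *DCX* with 1, 2 and 10 counts, *STMN2* with 4, 14 and 14 and *GAP43* with 16, 18 and 5.

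Genes of the synapse were expressed in 21 of 25 cases, with the highest above 100 CPM. *NLGN2*, an adhesion protein of inhibitory synapses, had 167 ± 42.2 CPM, and the vesicle fusion genes *VAMP2* and *STX1A* had 55.3 ± 2.66 and 36.9 ± 15.7 CPM (SD, n = 3). *DLG4* (PSD-95), the scaffold of excitatory synapses, had 66.3 ± 17.5 CPM, and the vesicle protein *SV2A* 56.5 ± 7.24 CPM. *SYT1*, the calcium sensor of transmitter release, had 18, 19 and 27 counts.

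Neuronal RNA-binding proteins and identity genes reached 1 CPM in 16 of 21 cases. *UCHL1*, a ubiquitin hydrolase abundant in neurons and a common marker of them, had 360.1, 306.1 and 291.6 CPM. *RBFOX2*, a splicing regulator, had 162 ± 6.11 CPM, *ENO2*, the neuronal enolase, 136 ± 8.40 CPM and the adhesion protein *NCAM1* 60.4 ± 5.56 CPM (SD, n = 3). *REST*, which represses neuronal genes outside the nervous system, was also expressed, at 46.55, 48.31 and 47.89 CPM. As a member of this list, *REST* is counted in the 16 here and in the 68 of all neuronal lists, although it represses neuronal genes. *RBFOX1* had 0 counts and *ELAVL4* had 1 count in all. Transmitter genes were the exception among the neuronal lists, since 6 of 21 were expressed. The receptor subunit *CHRNA5* had 22.5 ± 2.21 CPM, *GAD1*, which makes GABA, 20.98 ± 1.09 CPM, *GRIN1* 10.05 ± 1.197 CPM and the glutamate loader *SLC17A7* 5.27 ± 1.35 CPM. *SLC17A6* and *GRIA1* had 0 counts.

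Among 21 factors and signals that direct the making of neurons, 12 were expressed. *SOX4* had 244 ± 31.9 CPM, *POU3F2* 56.9 ± 12.3 CPM, *INSM1* 46.6 ± 8.69 CPM, *POU4F1*, a factor of sensory neurons, 44.6 ± 4.04 CPM and *SOX2*, a factor of neural stem cells, 38.3 ± 11.5 CPM (SD, n = 3). The neuronal differentiation factor *NEUROD1* had 26, 14 and 8 counts.

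Adrenal genes were the least complete of the 3 groups, with 27 of 56 (48.2%) expressed, 7 without counts and a median of 0.818 CPM. Protein-coding genes were expressed in 70.1% of cases with a median of 15.0 CPM, and the lists of other tissues in 40.3%. Every adrenal list was below the protein-coding share, at 58.8% for the cortex, 40.0% for steroid synthesis and 45.8% for chromaffin cells. They held 0.0863% ± 0.00302 of the counts (SD, n = 3). In the adrenal cortex list, 10 of 17 were expressed, led by genes with roles in many tissues: the coactivator *CITED2* at 72.3 ± 18.3 CPM, *POR*, which passes electrons to cytochromes P450, at 59.6 ± 3.37 CPM, *NR4A1* at 50.8 ± 6.20 CPM and *FDXR* at 24.2 ± 3.04 CPM. *NR5A1* (SF-1), the factor that defines steroid-producing cells, had 25, 37 and 38 counts, a mean of 0.912 CPM. *NR0B1* and *MC2R*, the receptor for the hormone that drives the cortex, had 0 counts.

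In the list for steroid synthesis, 6 of 15 genes were expressed. *AKR1B1*, an aldose reductase, had 128 ± 15.2 CPM, the lipoprotein receptor *SCARB1* 113 ± 20.03 CPM, *SOAT1*, which stores cholesterol as esters, 40.8 ± 2.24 CPM and *TSPO* 20.3 ± 4.83 CPM (SD, n = 3). *STAR*, which brings cholesterol into mitochondria, had 26, 14 and 26 counts. *CYP11A1*, the enzyme of the first step, had 18, 8 and 94 counts and passed 1 CPM on average only through replicate 3. *CYP17A1*, *CYP21A2*, *CYP11B1*, *HSD3B1* and *HSD3B2* were under 1 CPM, and *CYP11B2*, aldosterone synthase, had 0 counts.

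Chromaffin cells of the adrenal medulla make adrenaline, and 11 of their 24 listed genes were expressed. *GATA2* had 41.92, 35.75 and 68.45 CPM, *SLC18A2*, the vesicle carrier of monoamines, 17.2 ± 2.85 CPM, *RET* 7.72 ± 3.23 CPM and the granule protein *CHGB* 5.96 ± 3.86 CPM (SD, n = 3). Of the enzymes that make adrenaline from tyrosine, 3 of 4 were under 1 CPM. *TH*, which starts the pathway, had 0 counts, *DDC* had 4, 6 and 9 counts, and *DBH* had 2, 5 and 4. *PNMT*, the last step, had 73, 60 and 28 counts, a mean of 1.47 CPM. The peptide genes *PENK* and *CARTPT* and the factor *TFAP2B* also had 0 counts. *GATA3* and *RET* are shared with the nephron list, *WT1* is shared by the nephron and cortex lists, and *TFAP2B* by the loop and chromaffin lists, so these genes count in both groups.

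Markers of other tissues set these values in context. Of 124 genes in 9 other lists, 50 (40.3%) were expressed and 20 had no count, with a median of 0.334 CPM. Epithelial and mesenchymal genes were expressed at about the share of all protein-coding genes (70.1%): 11 of 16 epithelial genes were expressed, including the keratins *KRT8* at 277 ± 8.61 CPM and *KRT19* at 97.4 ± 10.3 CPM, and 12 of 17 mesenchymal genes, including *VIM* (vimentin) at 479 ± 46.9 CPM, *FN1* at 153 ± 37.7 CPM and *ZEB1* at 111 ± 17.1 CPM (SD, n = 3). Other members of these lists were low or silent. In the epithelial list *GRHL2* had 0 counts, and *KRT7*, *KRT5* and *KRT14* were under 0.1 CPM. In the mesenchymal list *DCN*, *LUM* and *THY1* were under 0.1 CPM, and *COL1A2* was at 0.256 CPM. *CDH1* and *CDH2*, the epithelial and neuronal cadherins, had 6.97 ± 1.74 and 80.9 ± 9.14 CPM. Glial genes were expressed in 7 of 10 cases, at most 22.4 ± 6.43 CPM for *MBP*. The pluripotency list was led by *LIN28B* at 67.1 ± 2.57 CPM, while *NANOG*, *ZFP42* and *TDGF1* had 0 counts. Blood, endothelial, hepatocyte and muscle lists had 6 of 18, 4 of 11, 2 of 13 and 3 of 13 genes expressed. *PTPRC* (CD45), *MS4A1* and *PPBP* of the blood list and *FGA* and *AFP* of the hepatocyte list had 0 counts. Of 15 germ cell and cancer-testis genes, *PRAME* alone was expressed, at 24.5 ± 1.88 CPM. Set against its markers, the label of embryonic kidney met 17 of 23 expressed nephron progenitor genes and 12 of 15 of the podocyte. The nephron progenitor share was near the 70.1% of protein-coding genes. Expressed genes numbered 11 of 22 in the proximal tubule (*LRP2* expressed, *SLC22A6* at 0 counts) and 3 of 18 in the loop and distal tubule (*UMOD* at 0). In the collecting duct they numbered 9 of 15 (*TFCP2L1* expressed, *FOXI1* at 0).

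Developmental transcription factors varied by family around the 70.1% of protein-coding genes that were expressed, with *HOX* and *MEIS-PBX* genes well above that share and most others near or under it. Of 39 *HOX* genes, which set position along the body axis, 36 were expressed and none was without counts, with *HOXB9* highest at 189.8 ± 19.96 CPM (SD, n = 3). All 7 *MEIS* and *PBX* genes, the partners of HOX proteins, were expressed, led by *PBX2* at 179 ± 9.36 CPM. Forkhead genes were expressed in 33 of 44 cases, led by *FOXC1* at 292 ± 15.8 CPM, *SOX* genes in 13 of 19, *KLF* genes in 13 of 17 with *KLF16* at 88.7 ± 7.06 CPM, and *DLX* genes in 5 of 6 with *DLX2* at 115 ± 7.99 CPM. *TBX* genes reached 8 of 13 (*TBX1*, 98.7 ± 21.3 CPM), *PAX* genes 6 of 9 (*PAX6*, 36.5 ± 1.15 CPM), *POU* genes 9 of 15 (*POU2F1*, 64.4 ± 24.5 CPM) and *GATA* genes 4 of 6 (*GATA4*, 71.8 ± 5.88 CPM). Smaller families gave *SIX5* at 59.3 ± 8.67 CPM, *IRX3* at 52.9 ± 1.93 CPM, *LHX2* at 18.1 ± 1.86 CPM and *SALL2* at 112 ± 5.10 CPM. The *NEUROD* and *NEUROG* genes, which commit cells to become neurons, were the lowest, with 2 of 7 expressed and *NEUROG2* at 4.15 ± 0.663 CPM. These leaders were picked by CPM. Per length, *PAX6* had 8.15 ± 0.164 TPM, below *PAX9* at 19.59 ± 1.56 TPM. *POU2F1* had 18.58 ± 7.25 TPM, below *POU3F2* at 53.65 ± 11.4 TPM. The other leaders named here also had the highest mean TPM of their families.

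Of *PEG10* and 7 genes listed with it, 7 of 8 were expressed in control cells. *PEG10*, a gene domesticated from a retrotransposon and located at chr7:94656325-94669695, had 11820, 14243 and 7817 counts, or 346.2, 341.5 and 229.9 CPM, which placed it at rank 491 of all genes by counts. By their labels, none of these cells received a *PEG10* plasmid. Of the ubiquilins, which carry proteins to the proteasome, *UBQLN4* had 151 ± 8.51 CPM, *UBQLN1* 148 ± 14.3 CPM and *UBQLN2* 90.03 ± 17.06 CPM (SD, n = 3). Per length, *UBQLN4* was at 179 ± 7.72 TPM, *UBQLN1* at 99.5 ± 8.04 TPM and *UBQLN2* at 97.8 ± 18.3 TPM, so that the last 2 did not differ beyond their spread. *ARC*, another gene of retrotransposon origin and active in synapses, had 46.90, 51.52 and 80.65 CPM, and *RTL1*, a relative of *PEG10*, had 1 count in replicate 1 and 0 in the others. *DCLK1*, a microtubule-binding kinase, had 19.96 ± 7.37 CPM, and *TXNIP*, an inhibitor of thioredoxin, 16.5 ± 2.33 CPM.

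Among the gene families examined, the largest silent shares were in those of the senses, the skin and defense. Of the 5172 genes with 0 counts, 1890 were protein coding, 1414 were miRNA genes and 1038 long noncoding RNAs. In the 9 other libraries of the series, all of cells that received other constructs, 1637 of these genes had at least 1 count. With every control library thinned to the smallest one, 5218 genes had 0 counts. Olfactory receptors, the odor sensors of the nose, were silent in 328 of 399 cases (82.2%), and the only family member at 1 CPM was the pseudogene *OR7E14P*. They made up 315 of the 1890 silent protein-coding genes (16.7%). Keratin-associated proteins of hair were silent in 65 of 93 cases, beta-defensins, antimicrobial peptides of epithelia, in 30 of 38, and taste receptors in 10 of 28. No type I interferon gene was expressed, and 9 of 17 were silent. Chemokines were expressed in 11 of 45 cases and interleukins in 6 of 38.

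Some genes of general cell functions also had no or few counts. *EIF4A1*, the helicase of the cap-binding complex, which growing cells use to start translation, had 0 counts in all 3 libraries. The table also holds a separate symbol, *SENP3-EIF4A1*, for transcripts that read through from the neighboring *SENP3* into *EIF4A1*, and this symbol had 44, 66 and 67 counts, while *SENP3* had 12.2 ± 2.54 CPM (SD, n = 3). *EIF3C*, an initiation factor subunit with a near-identical copy, had 3, 0 and 0 counts. The table listed 122 such readthrough symbols, of which 87 had 0 counts and 6 reached 1 CPM. The 232 protein-coding genes inside them were expressed in 55.2% of cases and silent in 14.2%, compared with 70.3% and 9.86% of the other 18840 protein-coding genes. *TEN1* and *CDK3*, a pair with such a symbol, both had 0 counts. Levels of genes inside a readthrough symbol are therefore uncertain in this table, and the cause was not tested.

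The promoters of 2 silent genes are shown for comparison with those of *EEF2* and *CKB*. They are the first in alphabetical order among the protein-coding list genes with 0 counts that have a RefSeq window: *AFP*, alpha-fetoprotein of fetal liver, on the forward strand at chr4:73435971-73436270, and *CARTPT*, a neuropeptide, on the forward strand at chr5:71719025-71719324. Capitals again mark CG pairs, 1 in *AFP* and 25 in *CARTPT*.
AFP: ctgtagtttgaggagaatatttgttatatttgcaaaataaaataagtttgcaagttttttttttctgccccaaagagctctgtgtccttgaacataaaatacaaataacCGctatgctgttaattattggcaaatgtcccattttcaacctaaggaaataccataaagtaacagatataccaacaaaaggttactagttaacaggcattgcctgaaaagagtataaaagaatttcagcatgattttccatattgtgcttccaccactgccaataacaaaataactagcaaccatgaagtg
CARTPT: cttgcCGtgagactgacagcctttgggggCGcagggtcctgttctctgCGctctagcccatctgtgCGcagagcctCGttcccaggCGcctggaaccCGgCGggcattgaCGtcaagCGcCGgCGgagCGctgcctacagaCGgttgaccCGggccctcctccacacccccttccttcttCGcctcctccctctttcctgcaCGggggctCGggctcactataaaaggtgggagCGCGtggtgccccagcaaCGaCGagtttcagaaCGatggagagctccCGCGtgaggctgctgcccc

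CG pairs are depleted across most of the genome but kept in CpG islands, the promoter type of many widely expressed genes. The ratio of observed to expected CG pairs, in which expected pairs follow from the C and G content of the 300 bases, was 1.36 for *EEF2*, 0.942 for *CKB*, 0.770 for *CARTPT* and 0.123 for *AFP*. The silent *CARTPT* thus had a CG-rich promoter, and *AFP* a CG-poor one. Over the 19024 protein-coding genes with a window read from GRCh38 around their GENCODE start, the median ratio was 0.245 for the 1859 silent genes, 0.342 for genes under 1 CPM, 0.745 from 1 to 10 CPM, 0.866 from 10 to 100 CPM and 0.917 at 100 CPM or more. A ratio of 0.6 or more was found in 19.7% of silent genes and in 95.6% of genes at 100 CPM or more, compared with 68.8% of all windows. With olfactory receptors set apart, the 1547 silent genes outside that family had a median ratio of 0.286, and the 312 silent olfactory receptors 0.120.

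The motif TATAAA, the core of the TATA box and the only motif searched, was looked for on both strands. It was in all 4 sequences shown, with its first base at position -30 in *EEF2*, -69 in *CKB*, -29 in *AFP* and -31 in *CARTPT*, counted from the transcript start. Among all windows 9.43% held it. The share was 24.2% in silent genes, 17.0% in genes under 1 CPM, 8.38% from 1 to 10 CPM, 3.94% from 10 to 100 CPM and 5.69% at 100 CPM or more. Within 45 to 11 bases before the start and on the gene's strand, 9.68% of silent genes and 2.64% of genes at 100 CPM or more held it, compared with 4.07% of all windows. The median GC content of the windows moved with these classes, from 48.3% in silent genes to 68.0% at 100 CPM or more, and its part in the difference was not tested. A match of letters is a description, not a binding site.

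**Figure D4:**
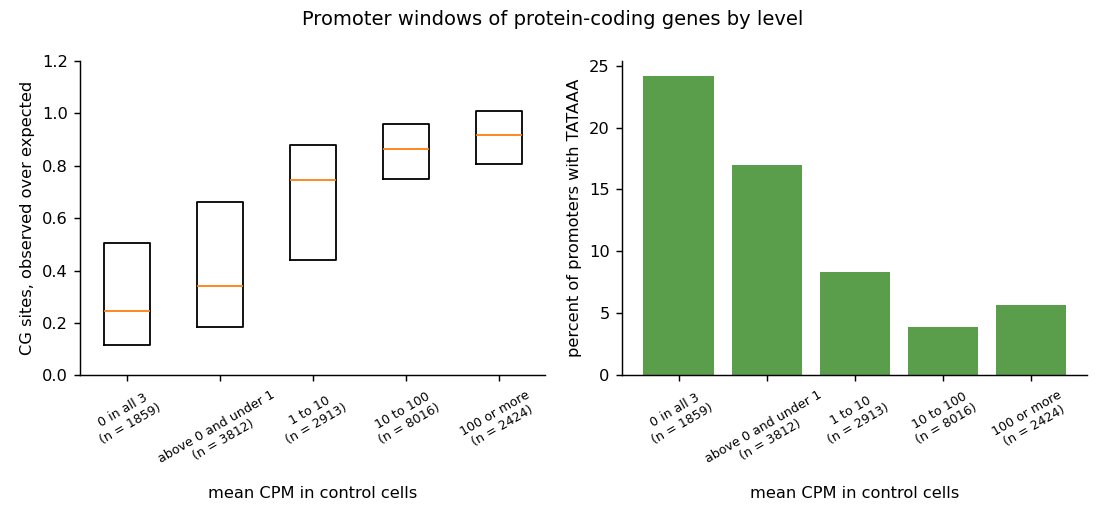
Promoter windows of 300 bases by class of mean CPM in control cells: left, observed over expected CG pairs as median and quartiles (line and box); right, percent of windows with TATAAA on either strand, with bars starting at 0. The median ratio goes from 0.245 in silent genes to 0.917 at 100 CPM or more, and the share with TATAAA from 24.2% to 5.69%.

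Control libraries resembled each other closely but not within sampling noise. Over the 14608 expressed genes, the correlation of log2 CPM across genes was between 0.972 and 0.981 for the 3 pairs of libraries, where genes are not independent replicates. The chi-square statistic of the counts per gene was 47.4 to 67.1, where sampling noise alone gives about 1. The biological coefficient of variation, the typical spread of a gene between libraries beyond counting error, was 21.2% in edgeR. For the 10756 genes at 10 CPM or more, the highest library was a median of 1.29 times the lowest. The ratio was under 1.5 in 79.3% of them and over 2 in 364 (3.38%). Of these 364 genes, 178 were highest in replicate 3, 110 in replicate 2 and 76 in replicate 1.

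Among genes at 10 CPM or more, 10 were named for the largest ratio of highest to lowest library. *SLC6A12*, a transporter of betaine and GABA, had 88, 109 and 3373 counts, or 2.58, 2.61 and 99.2 CPM, a ratio of 38.5 that rested on replicate 3. *RN7SK*, a nuclear RNA without a poly(A) tail, had a ratio of 5.91. The chemokine *CCL5* had 4.13, 5.85 and 23.7 CPM, and the interferon-induced *IFIT3* had 25.05, 11.27 and 50.56 CPM. *NFKBIA*, the feedback inhibitor of NF-kB, had 46.3, 63.5 and 205 CPM, and *OASL*, another interferon-induced gene, 12.19, 5.23 and 23.03 CPM. All of these were highest in replicate 3. *SNAI1* and *REC8* were also highest there, with ratios of 4.35 and 4.30, and *LINC00202-1* with 4.98, whereas *DRD4*, a dopamine receptor, was highest in replicate 2 with 4.31.

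**Figure D5:**
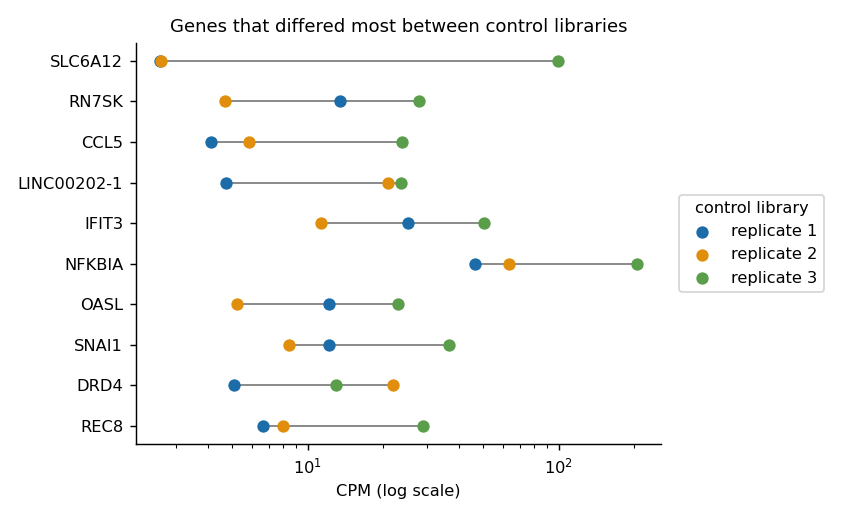
CPM on a log axis in each control library for the 10 genes of at least 10 CPM with the largest ratio of highest to lowest library, with 1 point for each replicate and a line over the range. Replicate 3 is highest for all but *DRD4*, and *SLC6A12* spans 2.58 to 99.2 CPM.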

How the data were processed

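Poly(A) RNA of HEK293 cells was sequenced as read pairs by the authors, who deposited raw counts of reads per gene. The submitters' processing notes and the methods name STAR 2.7.3, SAMtools 1.8, featureCounts and GRCh38.p13. The annotation release, the strand setting and the treatment of reads with several matches are not given in the sources used here.

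From these counts, CPM used the library total of each control library, and TPM the merged exon length in GENCODE 44. Of 26485 symbols, 23161 matched GENCODE directly and 1368 by an older symbol; the other 1956 held 0.405% of the counts. Tables were made with Python 3.11.15, pandas 2.3.3 and matplotlib 3.10.9, and the spread with edgeR 4.0.16 in R 4.3.3, after its filter on low counts (15587 genes); this step was tested on simulated data. Replicates were compared by chi-square before averaging. Promoter statistics used GRCh38 and GENCODE canonical starts, because the RefSeq table covered too few genes, and printed promoters came from RefSeq.

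Named were the 30 genes with the most CPM, the 20 protein-coding genes with the highest TPM, the 10 top long noncoding genes, up to 5 top members of each list and its markers at 0, the highest member of each factor family, the 10 most variable genes and *PEG10* with 7 listed genes. Top members of lists and families were taken by CPM. Further list and readthrough genes, mostly at low levels, were chosen after their values were seen. *XIST* and Y-linked genes (103 with them) were left out of named genes. Lists and members were chosen with earlier results of these data known. The alternatives were TMM scaling, other thresholds, TPM in place of counts, canonical transcript lengths, thinned counts, no filter and leaving out each library. Some members of the lists are not reported here.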

Additional observations from a re-analysis of the deposited data

How the results depend on the processing

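In 49 of 60 alternatives, a share moved by less than its spread between libraries or a gene number stayed within 1.5 times its value. Leaving out 1 of 3 libraries always moves a mean share by less than its spread, so for shares that outcome was fixed. Of the 27 alternatives that left no library out, 19 stayed within these limits. The biological coefficient of variation has no spread of its own and was counted as moved. Silence depended on its definition, since 8340 genes had a mean under 0.1 CPM, compared with 5172 without counts. In TPM, the 10 and 100 most abundant genes held 5.10% and 19.9% in place of 3.76% and 14.8%, protein-coding genes 95.99% in place of 98.3%, and cytosolic ribosomal proteins 10.9% in place of 6.79%. At 5 CPM, 30 kidney genes passed in place of 52. With canonical transcript lengths, 13 of the first 20 genes by TPM were shared. Without a filter on low counts the biological coefficient of variation was 23.9% in place of 21.2%.

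With each control library left out in turn, that coefficient ran from 18.5% (without replicate 3) to 23.1% (without replicate 2), silent genes numbered 5647 to 5996, and 14510 to 14644 genes reached 1 CPM. Shares without the mitochondrial genome were not run, because the table has none of its genes. The depth limits statements on genes near 0.0273 CPM, and 1 line and 3 libraries limit the precision of every SD. Of the 364 genes that differed over 2 times between libraries, replicate 3 was highest in 178 and lowest in 119, and replicate 1 highest in 76 and lowest in 166.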
